A study of Mus musculus with 9 samples.

Results

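The genes described are 31 genes of the response to low oxygen and of glycolysis, taken by symbol as a list of glycolytic enzymes, glucose and lactate transporters, regulators of glucose use, parts of the oxygen-sensing machinery and targets of the hypoxia-inducible factors (HIFs). They are 31 of the 55403 gene rows of a table of read counts, and all 31 were among the 14665 genes with enough counts to be tested. The libraries came from mammary tumors of female mice on a C57BL/6 background with the transgenes MMTV-PyMT and MUC1.Tg (a strain called MMT), in which the promoter of a mammary tumor virus drives the polyoma middle T oncogene and human MUC1 is also expressed. In 4 libraries the Hspa1a and Hspa1b genes, which encode the stress-inducible chaperone HSP72, were intact (WT, Hspa1a/Hspa1b+/+), and in 5 both were knocked out (KO, Hspa1a/Hspa1b-/-). The WT animals were 122, 132, 124 and 124 days old in the order WT 1 to WT 4, and the KO animals were 122, 123, 120, 125 and 120 days old in the order KO 1 to KO 5. Only WT 2 came from an animal older than 125 days, so fits with age as a term, given below, rest largely on that library. Both groups carried both transgenes, and no mammary tissue without the oncogene was part of the comparison. Tumors were dissociated with collagenase and trypsin at 37 °C before RNA extraction. The series asks which tumor processes depend on HSP72.

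In cells with enough oxygen, prolyl hydroxylases of the EGLN family mark the HIF alpha subunits for destruction through the VHL ubiquitin ligase. When oxygen is scarce the alpha subunits persist, pair with ARNT and bind a short core sequence near their target genes, which include most glycolytic enzymes, the glucose transporter GLUT1, the angiogenic factor VEGF-A and the hydroxylases themselves. HIF alpha is controlled mainly as a protein, so the level of its transcript does not measure its activity. Solid tumors, mammary tumors among them, often have poorly perfused regions where this program is active, and many also use glycolysis when oxygen is present.

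Fragments counted on genes numbered 4410399 to 6221181 per library, and the level that 0 counts would allow was 0.482 to 0.680 CPM (counts scaled to library size), which covers counting error only. Hspa1b stood at 55.0 ± 22.3 CPM (SD) over the 4 WT libraries and 0.203 ± 0.269 CPM over the 5 KO libraries, and Hspa1a was also lower in every KO library. All 6 epithelial markers (Krt8, Krt18, Epcam, Krt19, Cdh1, Elf5) were detected in every library, with summed levels of 3195 to 6159 CPM across WT and 2895 to 3604 CPM in KO. WT 1 and KO 3 often held the extreme value of a gene. WT 1 held the highest value of 19.5% and the lowest of 21.4% of the genes tested, and KO 3 the highest of 18.6% and the lowest of 16.5%. For WT 2 these shares were 12.6% and 11.6%, and for KO 2 they were 9.19% and 10.5%. The remaining libraries were not counted in this way. WT 4 had the largest shares of unmapped (27.1%) and multimapped (9.53%) fragments. KO 3 also had the smallest share of unmapped fragments (11%) and the largest share outside annotated features (50.4%), and results that rest on it or on WT 1 are given with and without it. These are bulk samples, in which fewer cells of a type and less RNA per cell cannot be told apart. Animals are not numbered in the labels, and the p-values therefore reflect the spread among these 9 samples only.

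The HIF core is the sequence ACGTG or GCGTG. It was searched on both strands in the RefSeq windows that run from 250 bases before to 50 bases after each annotated start, and ACGTG also overlaps the E-box CACGTG, which other factors bind. The table held windows for 29 of the 31 genes, the others being Ndrg1 and Epas1. Either core occurred in 33 of the 43 windows of these genes (76.7%), beside 43.8% of all 32851 windows. For ACGTG alone the shares were 53.5% and 19.6%, and for GCGTG alone 48.8% and 32.4%. The list was chosen to hold HIF targets, and the other windows were not matched to it for base content or type of gene. Overlapping windows of 1 gene, as for Eno1 and Aldoa, were counted separately. The shares are therefore a description. The stretches below (RefSeq, GRCm38.p6, written 5′ to 3′ on the gene's strand, capitals marking a core on either strand) belong to 5 genes whose highest level was in KO 3 and, last, to Ldha, whose highest level was in WT 1. For Car9 only the core and its flanks are shown, and its 190-base stretch further upstream held no core. Of the 8 genes highest in KO 3, Vegfa, Ankrd37 and Kdm3a are not shown. For Vegfa and Kdm3a, stretches before the start outside annotated exons held no core, and their cores lay within annotated exons. The stretch of Ankrd37 held 3 cores.
Adm, chr7:110627407-110627656, plus strand: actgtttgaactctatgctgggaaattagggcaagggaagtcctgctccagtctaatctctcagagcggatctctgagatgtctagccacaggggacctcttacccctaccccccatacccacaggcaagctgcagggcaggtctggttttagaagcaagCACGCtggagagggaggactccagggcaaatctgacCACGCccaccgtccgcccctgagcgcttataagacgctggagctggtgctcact
Bnip3, chr7:138909520-138909756, minus strand: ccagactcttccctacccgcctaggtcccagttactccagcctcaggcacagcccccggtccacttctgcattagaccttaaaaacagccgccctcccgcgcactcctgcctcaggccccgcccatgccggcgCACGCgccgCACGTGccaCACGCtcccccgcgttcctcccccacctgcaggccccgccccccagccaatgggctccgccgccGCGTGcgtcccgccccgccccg
Egln3, chr12:54203875-54204124, minus strand: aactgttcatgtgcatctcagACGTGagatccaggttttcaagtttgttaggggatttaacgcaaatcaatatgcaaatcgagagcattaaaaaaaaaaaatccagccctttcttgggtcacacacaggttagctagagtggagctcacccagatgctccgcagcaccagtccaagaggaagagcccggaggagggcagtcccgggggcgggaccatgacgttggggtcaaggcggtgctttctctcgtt
Pgk1, chrX:106186850-106187099, plus strand: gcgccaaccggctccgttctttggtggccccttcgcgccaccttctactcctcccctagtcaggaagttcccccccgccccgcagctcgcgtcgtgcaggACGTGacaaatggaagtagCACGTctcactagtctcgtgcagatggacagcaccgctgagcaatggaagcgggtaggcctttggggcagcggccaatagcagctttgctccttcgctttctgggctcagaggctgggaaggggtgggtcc
Car9, chr4:43506996-43507024, plus strand: ctatttccgatgCACGTacagcccgtcca
Ldha, chr7:46845554-46845803, plus strand: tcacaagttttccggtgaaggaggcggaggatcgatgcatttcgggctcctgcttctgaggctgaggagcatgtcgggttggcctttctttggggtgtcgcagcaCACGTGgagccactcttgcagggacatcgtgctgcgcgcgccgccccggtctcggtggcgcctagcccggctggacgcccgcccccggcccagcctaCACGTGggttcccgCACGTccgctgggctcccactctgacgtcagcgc
The stretches of Bnip3 and Ldha show 4 and 3 marked sites, those of Adm and Pgk1 2 each, and those of Egln3 and Car9 1 each. A marked CACGTG holds the core on both strands and is counted here as 1 site. In Adm both matches are of the GCGTG form, read on the opposite strand as CACGC. In KO 3, Adm stood at 4.55 times the median of the other libraries and Ldha at 1.08 times. A match is a description of the sequence and not a measured binding site.

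None of the 31 genes differed between KO and WT at an adjusted p under 0.05 (edgeR quasi-likelihood test, Benjamini-Hochberg adjustment over 14665 genes), where 0.0886% of all genes did. Adjusted p-values ran from 0.616 to 0.989 in edgeR. Ndrg1 alone had an unadjusted p under 0.05, at 0.0206, where 7.95% of all genes did. Log2 fold changes (KO over WT) were negative for 22 genes and positive for 9, with a median of -0.10, beside 50% negative and a median of -7.8e-05 over all genes tested. No gene of the 31 had every KO library on one side of every WT library, as 2.70% of all genes had. For 26 genes the 95% interval of the log2 fold change lay within 1 unit of 0, that is, within a 2-fold change either way. Leaving out KO 3, the median was -0.15 (-0.0089 over all genes), 25 genes were negative (51.4% of all genes), and none was called, where 0.0697% of all genes were. Without KO 3, 4 genes (Tpi1, Pgk1, Ldha and Ndrg1, all lower) had an unadjusted p under 0.05, beside 7.87% of all genes, and the groups of 3 (Tpi1, Ldha and Ndrg1) did not overlap, beside 4.71%. Without WT 1 the median was -0.13 and Ndrg1 was again the only gene with an unadjusted p under 0.05. Without both WT 1 and KO 3 the median was -0.14, and Tpi1 and Ndrg1 had an unadjusted p under 0.05.

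**Figure D1:**
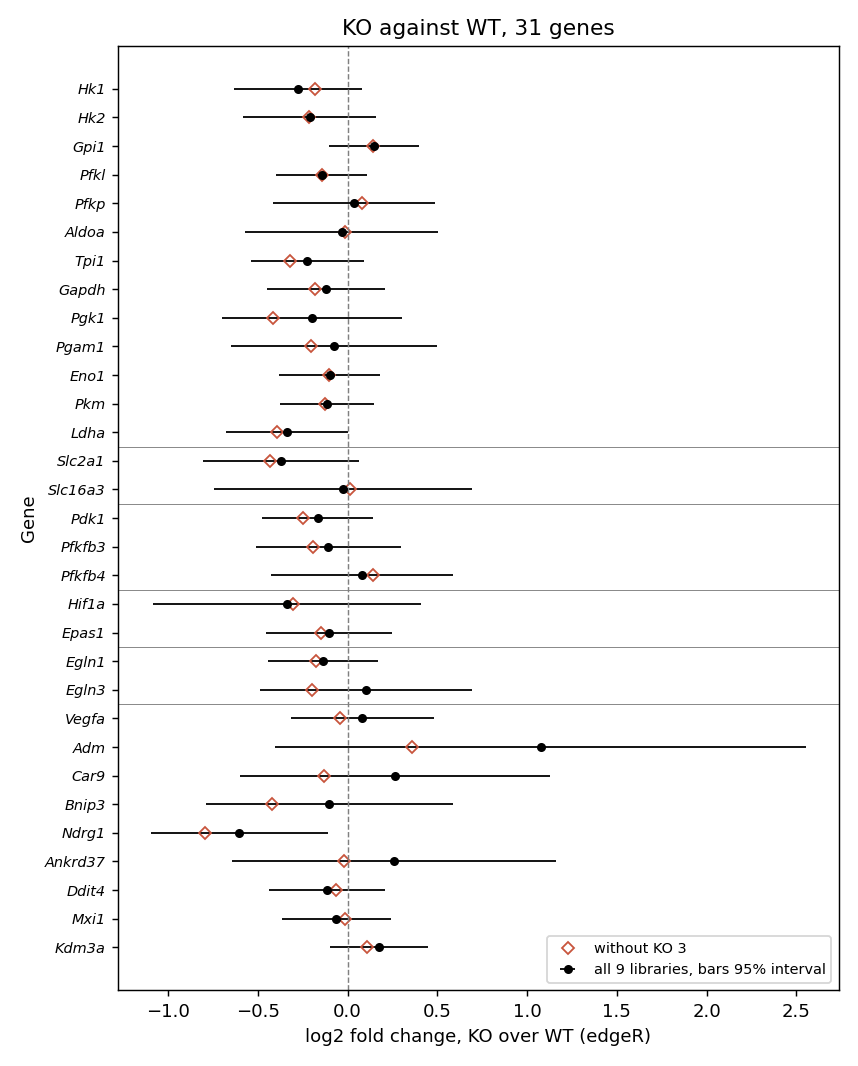
Log2 fold change of KO over WT for each of the 31 genes, ordered by role, with bars for the 95% interval of the edgeR fit over 9 libraries and diamonds for the fit without KO 3. The interval of Ndrg1 is the only one that excludes 0, and Adm, at 1.08, has the widest interval.

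None of the 13 glycolytic enzymes passed the test. Their log2 fold changes ran from -0.34 (Ldha) to 0.15 (Gpi1), 11 being negative and 2 positive, with a median of -0.12 (-0.18 without KO 3), and none had an unadjusted p under 0.05. All 13 intervals lay within 1 log2 unit of 0. Their mean log2 CPM was 7.13, 7.12, 7.03 and 7.14 in WT 1 to WT 4 and 6.84, 7.01, 7.08, 6.87 and 7.01 in KO 1 to KO 5. KO 1 and KO 4 were the lowest 2 libraries, and KO 2 and KO 5 lay just below WT 3, the lowest WT library. KO 3 lay among the WT libraries.

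Compared per kilobase of exon, the most abundant enzymes were aldolase A (Aldoa, which splits fructose bisphosphate), at 170 ± 18.0 CPM per kb in WT, and lactate dehydrogenase A (Ldha, which turns pyruvate into lactate), at 164 ± 30.4 CPM per kb (SD, n = 4), a pair whose levels did not differ beyond their spread. Pyruvate kinase (Pkm, the last step before pyruvate) followed at 101 ± 11.1 CPM per kb. Triosephosphate isomerase (Tpi1), Gapdh, enolase (Eno1), the phosphofructokinase Pfkl and hexokinase 1 (Hk1) lay between 31.6 and 44.0 CPM per kb. Hexokinase 2 (Hk2), the inducible form, stood at 6.07 ± 1.59 CPM per kb in WT against 31.6 ± 5.02 for Hk1. Pgk1 stood at 9.49 and Pgam1 at 6.42 CPM per kb. Near-identical copies exist for some of these genes: 75 annotated pseudogenes matched Gapdh at 95% identity or more over at least 200 bases, 4 each matched Pgk1 and Ldha, 3 matched Bnip3, 2 Eno1, and 1 each Gpi1, Tpi1, Pgam1 and Pkm. Reads that fit several places equally well are left out of such counts, so absolute levels of these genes are uncertain.

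Ldha stood at 678, 462, 471 and 563 CPM in WT 1 to WT 4 and at 438, 454, 494, 342 and 421 CPM in KO 1 to KO 5. Only KO 3 reached the WT range, and WT 1 was the highest library. The log2 fold change was -0.34 ± 0.15 (SE), with a 95% interval of -0.68 to 0.00094 (edgeR adjusted p = 0.629). Without KO 3 it was -0.39 ± 0.16 (edgeR adjusted p = 0.612), without WT 1 it was -0.21, and leaving out both WT 1 and WT 4 gave -0.12. A fit with age as a term gave -0.50.

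Tpi1, which interconverts the triose phosphates, stood at 115, 145, 117 and 107 CPM in the WT tumors and at 94.8, 87.0, 131, 100.0 and 105 CPM in KO. KO 3 lay within the WT range and the other KO libraries just below it. Its log2 fold change was -0.22 ± 0.14 (SE), -0.32 ± 0.13 without KO 3 (edgeR adjusted p = 0.612) and -0.13 without WT 2. Phosphoglycerate kinase (Pgk1, an ATP-forming step and a classic HIF target) stood at 21.2, 19.2, 24.4 and 20.4 CPM in the WT tumors and at 14.2, 12.7, 28.9, 16.6 and 20.5 CPM in KO. It was highest in KO 3, and KO 1, KO 2 and KO 4 were below every WT library. Its log2 fold change of -0.20 ± 0.23 was -0.41 ± 0.18 without KO 3 (edgeR adjusted p = 0.612) and -0.08 without KO 2. A fit with age as a term gave -0.39.

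Aldoa was set apart in 1 library. It stood at 548, 521, 427 and 484 CPM in the WT tumors and at 400, 836, 459, 335 and 390.2 CPM in KO, so that KO 2 exceeded every other library by at least 1.52-fold. KO 2 was the highest library for 3 of the 31 genes (9.19% of all genes tested), and 3 of the 31 (Aldoa, Pfkp and Hif1a) stood there at 1.5 times the median of the other 8 libraries or more (5.58% of all genes). The log2 fold change was -0.03 ± 0.24 (SE; interval -0.57 to 0.50; edgeR adjusted p = 0.982), and -0.32 without KO 2. The other 11 genes within 100000 bases of Aldoa on chromosome 7 (126795234 to 126800751, GRCm38) with a mean of at least 10 CPM stood in KO 2 at 0.860 (Coro1a) to 1.62 (Hirip3) times the median of the other 8 libraries, beside 1.89 for Aldoa. The adjacent Ppp4c stood at 0.994. These neighbours, and those of Hif1a, were looked at after the values had been seen. A second annotated Aldoa identifier just upstream, not among the 31, was highest in KO 2 as well, at 8.15 CPM. The skeletal muscle markers summed to 195 CPM in KO 2 and 198 CPM in KO 3, beside 61.6 to 169 CPM across WT and 108 to 198 CPM over all KO libraries, and their part in the level of Aldoa was not tested.

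The other enzymes did not separate the genotypes. Gpi1, which isomerizes glucose phosphate, stood at 165 ± 12.1 CPM (SD) for WT and 182 ± 17.9 CPM for KO, the larger of the 2 positive log2 fold changes among the enzymes (0.15 ± 0.11, SE). Hk1, the first step of the pathway, stood at 269 ± 42.8 and 222 ± 38.5 CPM (-0.28 ± 0.16, and -0.18 without KO 3), and was the enzyme that stood lowest in KO 3, at 161 CPM or 0.647 times the median of the other libraries. Log2 fold changes were -0.21 for Hk2, -0.14 for Pfkl, 0.04 for Pfkp, -0.12 for Gapdh, -0.08 for Pgam1, -0.10 for Eno1 and -0.12 for Pkm. The intervals of these enzymes all included 0, and the directions of Pfkp (-0.12 without KO 2) and Pgam1 (0.07 without KO 1) turned when 1 library was left out.

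Glucose enters cells through GLUT1 (Slc2a1), and lactate leaves through MCT4 (Slc16a3). Slc2a1 stood at 124, 94.9, 57.8 and 97.1 CPM in the WT tumors and at 68.4, 83.1, 84.2, 63.4 and 61.4 CPM in KO. The 5 KO libraries lay between WT 3 and WT 2, so the groups overlapped through WT 3 alone. Its log2 fold change was -0.37 ± 0.20 (SE; interval -0.81 to 0.065; edgeR adjusted p = 0.659), and -0.43 ± 0.21 without KO 3. Without WT 1 it was -0.21, without WT 3 it was -0.54, and leaving out both WT 1 and WT 4 gave -0.08. Slc16a3 was low in these tumors, at 2.79, 6.27, 3.49 and 2.91 CPM in the WT tumors and 2.56, 3.58, 3.45, 3.43 and 5.98 CPM in KO. WT 2 and KO 5 were high, and the log2 fold change was -0.02 ± 0.33, and 0.30 without WT 2.

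Of the regulators of glucose use, Pdk1 (a kinase that keeps pyruvate out of mitochondria) stood at 70.4 ± 7.74 CPM (SD) for WT and 62.7 ± 10.4 CPM for KO, with a log2 difference of -0.17 ± 0.14 (SE). KO 3, at 76.8 CPM, was next to the highest library, WT 3, at 77.8 CPM. Pfkfb3 and Pfkfb4, which set the level of the activator of phosphofructokinase, had log2 fold changes of -0.11 ± 0.18 and 0.08 ± 0.23. Pfkfb3 was the more abundant, at 6.70 ± 1.32 CPM per kb of exon in WT, against 1.11 ± 0.115 for Pfkfb4.

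**Figure D2:**
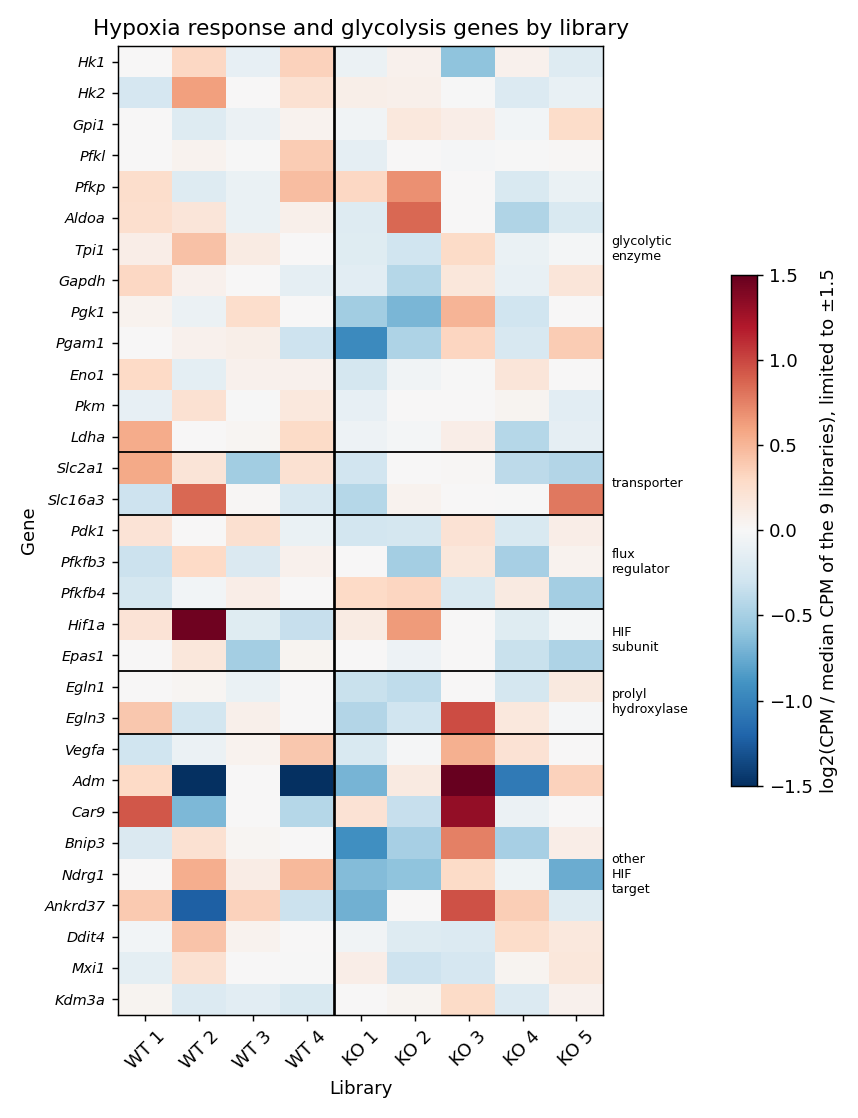
Heat map of the 31 genes (rows, grouped by role) in the 9 libraries (columns), coloured by log2 of the CPM over the gene's median across libraries and limited to 1.5 units either way. KO 3 is the highest column in Adm, Car9, Ankrd37, Egln3 and Bnip3, and Hif1a stands out in WT 2.

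The HIF alpha subunits were both highest in WT 2. Hif1a (chromosome 12, 73901375 to 73947530, GRCm38) stood at 84.7, 202, 64.5 and 57.5 CPM in the WT tumors and at 79.8, 115, 73.4, 64.8 and 71.6 CPM in KO. WT 2 exceeded KO 2, the next library, by 1.76-fold, and the other 7 libraries lay between 57.5 and 84.7 CPM. Of the 31 genes, 3 (Hif1a, Slc16a3 and Hk2) stood in WT 2 at 1.5 times the median of the other 8 libraries or more, beside 6.61% of all genes, and 10 were highest in WT 2, beside 12.6%. The log2 fold change was -0.34 ± 0.34 (SE; interval -1.08 to 0.41; edgeR adjusted p = 0.816), 0.23 without WT 2 and 0.29 in a fit with age as a term. Of the genes within 500000 bases with a mean of at least 10 CPM, Prkch and Snapc1, on either side, stood in WT 2 at 0.841 and 0.986 times the median of the other libraries, and Tmem30b at 1.47 times, beside 2.78 for Hif1a. WT 2 was also the oldest animal, at 132 days, and had the highest sum of the 7 immediate early genes, which respond within minutes to tissue handling, at 996 CPM against 289 to 699 CPM in the other libraries. Its keratins Krt8, Krt18 and Krt19 were also the highest, while Epcam and Cdh1 were highest in WT 1 and Elf5 in WT 4. The part of age, handling and cell makeup in the level of Hif1a was not tested. Of the 9 other HIF targets described below, 3 (Ndrg1, Ddit4 and Mxi1) were also highest in WT 2. Adm, at 0.627 CPM, and Ankrd37, at 0.836 CPM, had their lowest values in WT 2, as did Car9, at 12.1 CPM. Epas1, which encodes the alpha subunit HIF-2 alpha, prominent in endothelium, stood at 45.9 ± 8.62 CPM (SD) for WT and 42.7 ± 6.14 CPM for KO, with a log2 difference of -0.10 ± 0.16 (SE).

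**Figure D3:**
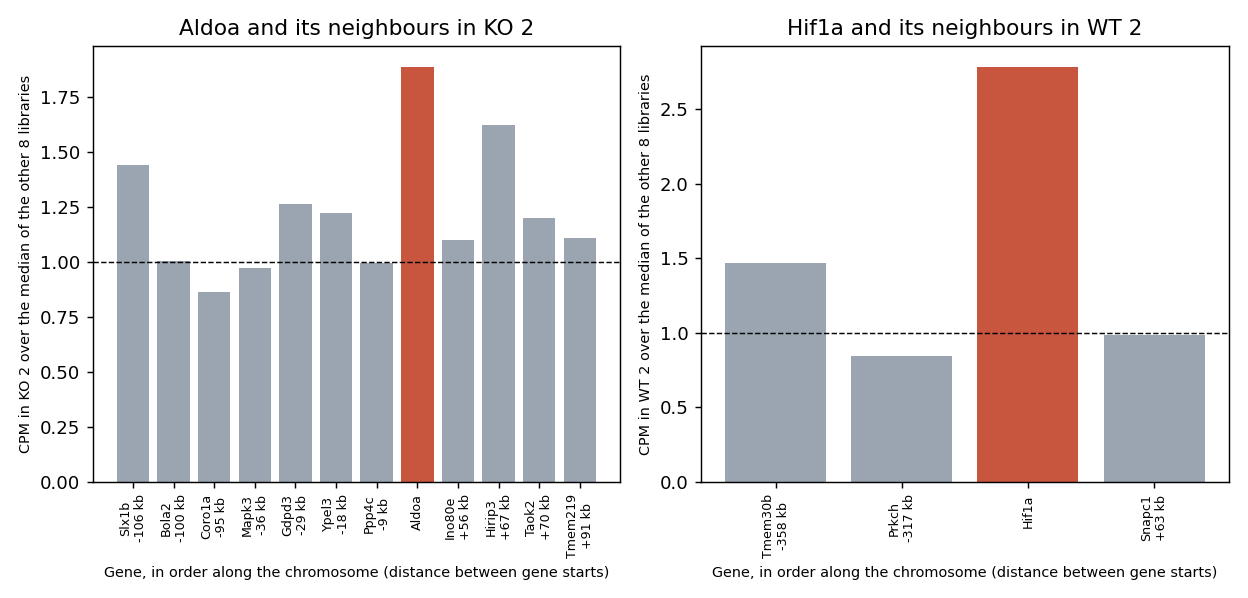
Levels of Aldoa and its neighbours in KO 2 (left) and of Hif1a and its neighbours in WT 2 (right), as CPM over the median of the other 8 libraries, with distance from the gene in kilobases. Aldoa (1.89) and Hif1a (2.78) have the tallest bar of their panel.

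The 2 prolyl hydroxylases differed in how far they varied. Egln1 (PHD2, the main oxygen sensor in most cells) ranged from 20.5 CPM in KO 2 to 29.6 CPM in KO 5, with a log2 fold change of -0.14 ± 0.14. Egln3 (PHD3, itself strongly induced by HIF) stood at 78.2, 48.9, 62.5 and 59.1 CPM in the WT tumors and at 43.7, 48.2, 117, 65.9 and 58.5 CPM in KO. KO 3 was the highest library, WT 1 the next, and the remaining 7 lay between 43.7 and 65.9 CPM. Its log2 fold change was 0.10 ± 0.27 (SE), -0.20 ± 0.17 without KO 3, 0.23 without WT 1 and -0.07 without both. In a fit with age as a term it was -0.15.

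Among the other 9 HIF targets, 6 (Vegfa, Adm, Car9, Bnip3, Ankrd37 and Kdm3a) had their highest level in KO 3, and 4 of the 9 (Adm, Car9, Bnip3 and Ankrd37) stood there at 1.5 times the median of the other 8 libraries or more. Over all 31 genes the counts were 8 and 5, beside 18.6% and 13% of all genes tested, so they are near the share of all genes, and nothing is read from the split by role. The mean log2 CPM of the 9 targets was 4.88, 4.49, 4.83 and 4.63 in WT 1 to WT 4 and 4.49, 4.59, 5.38, 4.68 and 4.77 in KO 1 to KO 5. KO 3 was above all the others, and the remaining 4 KO libraries covered much the same range as WT. Their log2 fold changes were positive for 5 and negative for 4, and without KO 3 for 2 and 7.

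Adm encodes adrenomedullin, a peptide that widens vessels and protects endothelium. It stood at 5.12, 0.627, 4.15 and 1.34 CPM in WT (22, 3, 25 and 6 counts) and at 2.56, 4.56, 15.3, 1.99 and 5.30 CPM in KO (13, 28, 93, 11 and 31 counts). KO 3 exceeded every other library by at least 2.88-fold, while the other 8 spread over both genotypes alike. The log2 fold change was 1.08 ± 0.67 (SE; interval -0.40 to 2.55; edgeR adjusted p = 0.695). It was 0.36 ± 0.55 without KO 3, 1.48 without WT 1 and 0.76 without both. With age as a covariate it was -0.02.

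Car9 encodes a carbonic anhydrase of the cell surface that is widely used as a marker of hypoxic tumor tissue. It stood at 36.8, 12.1, 19.4 and 14.3 CPM in the WT tumors and at 22.5, 15.1, 48.3, 18.2 and 19.3 CPM in KO. KO 3 and WT 1 were the highest libraries, and the others lay between 12.1 and 22.5 CPM. Its log2 fold change was 0.26 ± 0.39 (SE), -0.13 ± 0.32 without KO 3, 0.68 without WT 1 and 0.29 without both. With age as a covariate it was -0.22.

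Bnip3, which promotes removal of mitochondria, stood at 7.68, 10.5, 9.14 and 8.95 CPM in the WT tumors and at 4.73, 6.36, 15.1, 6.32 and 9.57 CPM in KO. KO 3 was the highest library, and 3 of the other 4 KO libraries were below every WT library. The log2 fold change was -0.10 ± 0.31 (SE), -0.42 ± 0.24 without KO 3 and 0.04 without KO 1. Ankrd37, a small ankyrin-repeat gene responsive to HIF, was near the limit of counting at 0.836 to 3.78 CPM, with the highest value in KO 3. Its log2 fold change was 0.26 ± 0.41, -0.02 ± 0.39 without KO 3, 0.42 without WT 1 and 0.15 without both. With age as a covariate it was -0.10.

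Vegfa, the main angiogenic factor induced by HIF, stood at 108, 126, 139 and 177 CPM in the WT tumors and at 114, 131, 194, 155 and 133 CPM in KO. KO 3 was highest and WT 4 next, and the log2 fold change of 0.08 ± 0.18 (SE) was -0.04 ± 0.16 without KO 3 and -0.02 without WT 1. Kdm3a, a histone demethylase, had the narrowest spread of the 6 and stood at 160 ± 14.3 CPM (SD) for WT and 181 ± 22.1 CPM for KO, with a log2 difference of 0.18 ± 0.12 (SE), and 0.11 ± 0.11 without KO 3. Ddit4 (REDD1, an inhibitor of mTORC1 under stress) and Mxi1 (an antagonist of MYC) stood in KO 3 at 34.6 and 31.03 CPM, below every WT library. They had log2 fold changes of -0.11 ± 0.15 and -0.06 ± 0.14.

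**Figure D4:**
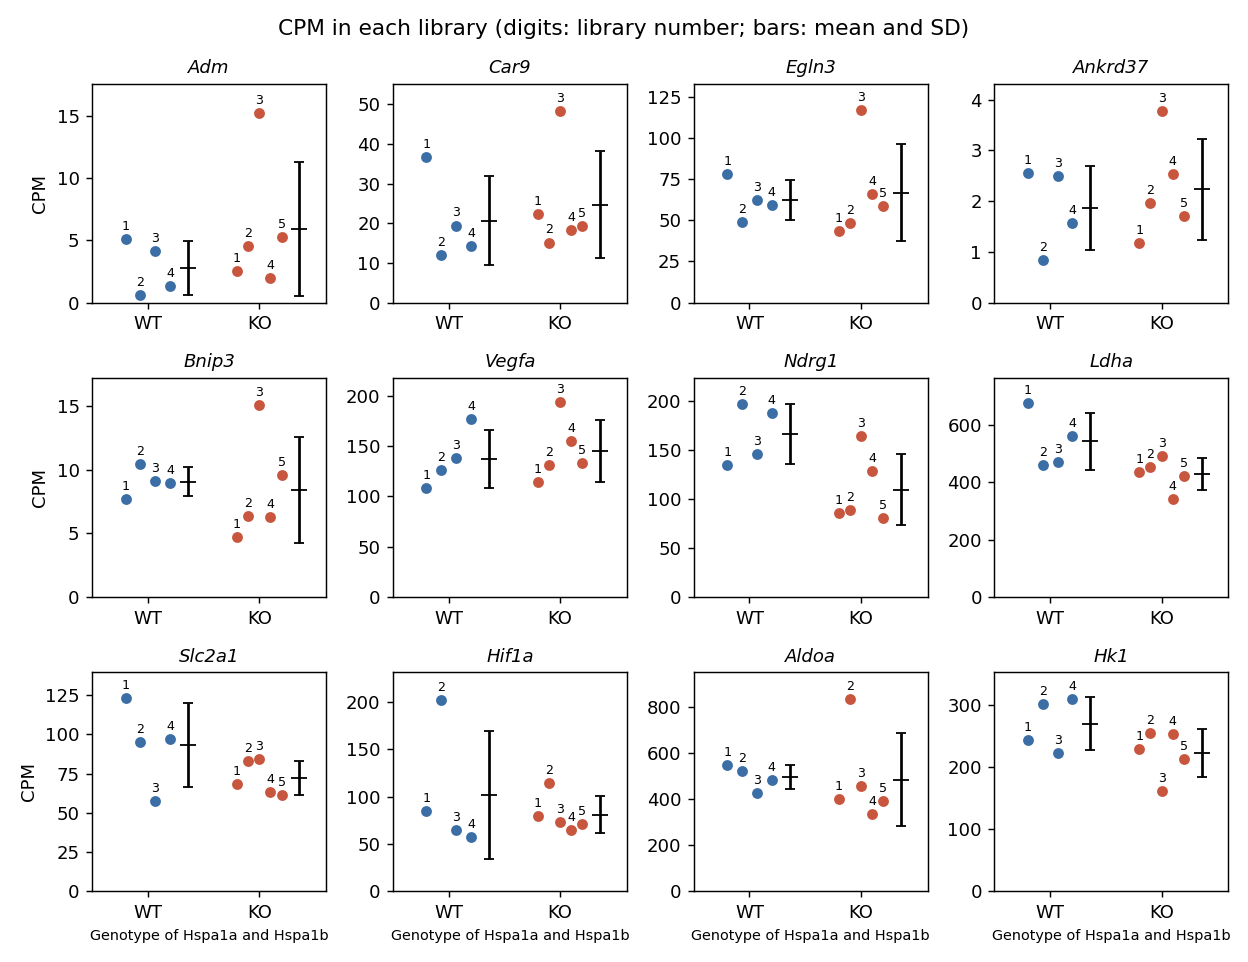
CPM per library for 12 of the genes, WT beside KO, each point drawn as its library number with bars for the mean and SD of the group. KO 3 lies above the other KO libraries in Adm, Car9, Egln3, Ankrd37 and Bnip3, WT 2 above the rest in Hif1a and KO 2 in Aldoa, while 4 of the 5 KO libraries lie below every WT library in Ndrg1.

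Ndrg1, a stress-responsive gene linked to differentiation and to suppression of metastasis, came closest to a difference between the genotypes. It stood at 134, 197, 146 and 188 CPM in the WT tumors and at 85.3, 88.8, 164, 129 and 80.2 CPM in KO (chromosome 15, 66929318 to 66969640, GRCm38). KO 3 lay within the WT range and the other 4 KO libraries below all WT libraries. The log2 fold change was -0.60 ± 0.22 (SE; interval -1.09 to -0.11; edgeR adjusted p = 0.616), and -0.79 ± 0.18 without KO 3 (edgeR adjusted p = 0.456). With each library left out in turn it ran from -0.79 to -0.51. Its unadjusted p was above 0.05 without WT 2, WT 4, KO 2 or KO 5. The same held in a fit with age as a term, which gave -0.48.

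KO 3 and WT 1 also differed from most other libraries in some marker levels. Of the 31 genes, 4 were highest in WT 1, beside 19.5% of all genes tested. In WT 1, 3 of the 31 stood at 1.5 times the median of the other 8 libraries or more, beside 16.7%. KO 3 had the highest sum of 6 proliferation genes (872 CPM, beside 281 to 627 in WT and 414 to 671 in the other KO libraries), the lowest sum of erythroid markers (20.0 CPM, beside 29.7 to 173) and the lowest sum of immediate early genes (289 CPM). Its T and NK markers summed to 2.63 CPM, the lowest value, with Cd3d and Nkg7 at 0. WT 1 had the highest sum of endothelial markers (132 CPM, beside 18.3 to 55.5 CPM in the other 8, KO 3 being the next), with all 7 highest there, and KO 3 had 3 of the 7 at 1.5 times the median of the other libraries or more. Milk protein markers summed to 16200 CPM in WT 1, 10560 CPM in WT 4 and 8021 CPM in KO 3. The other 6 libraries lay between 2444 and 5236 CPM. Of these 5 genes, 4 were lower in KO at an unadjusted p under 0.05 (edgeR), beside 4.59% of all genes tested. Fibroblast markers summed to 351 to 505 CPM across WT and 139 to 284 CPM in KO. Most of that sum was Col1a1 (244 to 465 CPM in WT and 106 to 239 in KO). It was the only one of these 6 whose groups did not overlap, beside 2.70% of all genes. Of the 6, 4 were lower in KO at an unadjusted p under 0.05 (edgeR), beside 4.59% of all genes. Fap went the other way, at up to 14.2 CPM in KO and 10.1 in WT. Macrophage markers summed to 214 to 383 CPM across WT and 145 to 217 CPM in KO. Log2 fold changes were negative for all 6 macrophage, all 7 endothelial and all 6 epithelial markers, beside 50% of all genes. Of these, 1, 3 and 2 were lower at an unadjusted p under 0.05 (edgeR). Cd14 was the only one of them whose groups did not overlap. All 7 skeletal muscle markers tested were positive. The part of these cell types, of proliferation and of the libraries' mapping in the levels of the 31 genes was not tested.

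The wider pathway was read from 3 further lists. Of 39 other genes of glycolysis and glucose metabolism, 29 were tested, none was called, and 2 were lower and 0 higher at an unadjusted p under 0.05 (4.59% and 3.36% of all genes), with a median log2 fold change of -0.08. Both encode parts of the pyruvate dehydrogenase system, which feeds pyruvate into the citric acid cycle. Pdk4, a kinase that inhibits pyruvate dehydrogenase, stood at 6.05, 3.34, 2.33 and 6.71 CPM in the WT tumors and at 1.38, 2.12, 1.31, 1.26 and 1.20 CPM in KO. Every KO library was below every WT library, and the log2 fold change was -1.62 ± 0.36 (SE; edgeR adjusted p = 0.299). Pdha1, a subunit of the dehydrogenase itself, separated the groups as well, with 103 ± 10.7 CPM (SD) for KO and 131 ± 10.95 CPM for WT and every KO library below (log2 fold change -0.35 ± 0.12, SE; edgeR adjusted p = 0.616). Groups did not overlap for 2.70% of all genes. The next by p were Adpgk (-0.37 ± 0.18) and the muscle enolase Eno3 (0.59 ± 0.30), with overlapping groups. Without WT 1 these were -0.21 and 0.35, and without WT 1 and WT 4 that of Pdk4 was -0.94.

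Of 18 listed genes of oxygen sensing and HIF partners, 15 were tested and none was called. At an unadjusted p under 0.05, 1 was higher and 2 lower, beside 3.36% and 4.59% of all genes. Arnt2, which can replace ARNT as partner of HIF alpha, stood at 6.05, 3.97, 7.98 and 6.04 CPM in the WT tumors and at 10.8, 8.31, 8.70, 19.7 and 17.4 CPM in KO. All KO libraries were above all WT libraries, and the log2 fold change was 1.1 ± 0.32 (SE; edgeR adjusted p = 0.538). Hsp90ab1, an HSP90 chaperone that stabilizes HIF alpha, separated the groups in the other direction, with 912 ± 89.8 CPM (SD) for KO and 1142 ± 115 CPM for WT (log2 fold change -0.32 ± 0.13, SE; edgeR adjusted p = 0.616). Such separation, in either direction, was seen for 2.70% of all genes. Eloc and Elob, adaptors of the VHL ligase, had log2 fold changes of -0.35 ± 0.16 and -0.23 ± 0.12. The fitted medians of this list and of the former were both -0.08, beside -7.8e-05 over all genes.

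Of 45 further HIF targets, 42 were tested and none was called, with a median of -0.07. At an unadjusted p under 0.05, 1 was higher and 3 lower, beside 3.36% and 4.59% of all genes. Jmjd6, a hydroxylase and HIF target, stood at 51.4 ± 4.93 CPM in KO and 41.7 ± 1.61 CPM in WT (SD), with every KO library above every WT library (0.30 ± 0.11, SE; edgeR adjusted p = 0.616). It was the only one of the 42 whose groups did not overlap, beside 2.70% of all genes. Tgfb3, Angptl4 and Edn1 had log2 fold changes of -0.48 ± 0.19, -0.52 ± 0.20 and -0.51 ± 0.22 (edgeR adjusted p = 0.616 for each), with overlapping groups, and that of Tgfb3 was -0.27 without WT 1. In KO 3, 11 of the 42 stood at 1.5 times the median of the other libraries or more, beside 13% of all genes, and in WT 1, 14 did, beside 16.7%. Of these, 6 did so in both libraries, beside 5.09% of all genes, and of the 31 genes 2 (Adm and Car9) did. The joint rise was not particular to HIF targets. It was seen in 5 of the 29 other glycolysis genes tested and in 0 of the 15 oxygen-sensing genes. Of the marker lists, 3 of 6 proliferation, 3 of 7 endothelial, 2 of 5 milk protein and 1 of 5 basal genes showed it. The other marker lists held no such gene. Plod2, a collagen lysyl hydroxylase, reached 66.8 CPM in WT 1 and 71.8 in KO 3, against 11.6 to 25.5 CPM in the other 7. P4ha1, a collagen prolyl hydroxylase, stood at 35.8 and 33.2 CPM, against 12.4 to 19.4 CPM.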

How the data were processed

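RNA was sequenced from 9 dissociated tumors as stranded, ribosome-depleted, paired-end libraries, per the labels' protocols. The authors used Trimmomatic 0.36, FastQC 0.11.5 and STAR 2.5.4a with GRCm38, per the submitters' processing notes. The deposited table holds raw counts per gene, per the labels and the values. The strand setting and annotation release were not given in the sources used here. Without the strand setting, overlapping genes cannot be told apart with certainty. Rows that name no gene took 11% to 27.1% (unmapped), 5.50% to 9.53% (multimapped), 34.0% to 50.4% (no feature) and 0.971% to 1.23% (ambiguous) of fragments and were left out.

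Of 55401 mouse identifiers, 54349 matched the GRCm38 annotation with the same version, 792 with another version and 260 not at all. KO was tested against WT with edgeR 4.0.16 in R 4.3.3 (glmQLFit, glmQLFTest, TMM factors, filterByExpr), two-sided, with Benjamini-Hochberg adjustment over all 14665 genes and a threshold of 0.05. The SE of a log2 fold change is its size over the square root of F. CPM values use TMM-scaled totals. Mean log2 CPM uses a prior count of 2. Groups came from the labels. The 31 genes, the pathway and marker lists and the tests were chosen with earlier results of these data known. All 31 genes are named, with full statistics where the unadjusted p was under 0.05, the groups did not overlap or 1 library exceeded every other by 1.5-fold. Of each pathway list, the up to 4 genes with the smallest p are named, then the 10 other genes most like the mean of the 31.

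The fit was tested on simulated counts with known changes. Of 200 genes changed 2-fold it recovered 94, with 7 false calls, and of 200 changed 4-fold 181, with 9 false calls. A true 2-fold change can therefore go uncalled in these data. Alternatives were other scaling factors and filters, DESeq2 1.42.0, limma-voom (limma 3.58.1), age, the replicate block, each library left out, WT 1 and WT 4 left out, and, chosen after seeing the data, WT 2 with KO 3 or WT 1 with KO 3 left out.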

Additional observations from a re-analysis of the deposited data

Results flagged for a closer look

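Of 62 groups of values (31 genes in 2 genotypes), 4 held a library whose gap to the nearest other, divided by the range of the group, was above Dixon's 95% value. Chance gives about 1 in 20 such groups. In KO 3, Adm stood at 15.3 CPM against 1.99 to 5.30 CPM in the other KO libraries, and Car9 at 48.3 CPM against 15.1 to 22.5 CPM. In KO 2, Aldoa stood at 836 CPM against 335 to 459 CPM. In WT 4, the phosphofructokinase gene Pfkl stood at 269 CPM against 206 to 215 CPM in the other WT libraries.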

How the results depend on the processing

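No gene of the 31 was called in any of the 21 alternatives, the lowest adjusted p being 0.279 (Ldha, with age as a covariate), and DESeq2 also called none (lowest 0.514). The 13 genes called in all became 29 without a count filter, 6 at a mean count of at least 50 (which keeps 26 of the 31), 63 with DESeq2, 6 to 13 with 1 library left out, and 8 without WT 2 and KO 3. Genes of the 31 with an unadjusted p under 0.05, 1 in the main comparison, were 2 with median-ratio factors, 2 with DESeq2, 3 with limma-voom, 0 to 4 with 1 library left out (0 without WT 4, KO 2 or KO 5, 4 without KO 3), 3 without WT 2 and KO 3, and 2 without WT 1 and KO 3. Genes whose groups did not overlap, 0 in the main comparison, were 0 to 3 with 1 library left out (1 without WT 3, 3 without KO 3), 1 without WT 1 and WT 4, 3 without WT 2 and KO 3 and 3 without WT 1 and KO 3. Of all genes, 2.70% had such groups in the main comparison and 4.71% without KO 3. For an unadjusted p under 0.05 (edgeR) these shares were 7.95% and 7.87%. Shares for the other settings are not given here, so nothing is read from the counts there. The median log2 fold change of the 31 stayed negative, from -0.15 without KO 5 to -0.03 without WT 2, and was -0.04 with library totals, where the median of all genes was 0.06. Of the 31, 18 changed sign in at least 1 of the 21 settings and 13 in none. Those that stayed lower in KO were Ndrg1, Ldha, Tpi1, Pgk1, Slc2a1, Hk1, Pfkl, Gapdh, Pkm, Pdk1 and Egln1. Gpi1 and Kdm3a stayed higher in KO. Same-numbered samples had correlations of deviations of -0.024, 0.38, 0.11 and 0.38 for numbers 1 to 4, with the own number highest for the last 3. This is a hint of pairing in the data for those numbers, but it did not hold for number 1, and the labels name no shared source, so the samples were not treated as pairs. With the replicate block 10 genes were called, none of the 31, the median was -0.15, and 1 of the 31 stood under an unadjusted p of 0.05. Pdk4 had an adjusted p of 0.0509 with DESeq2 and up to 0.931 over the alternatives. Low counts limit Adm, at 3 to 93 per library.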

Other observations

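Further genes of the lists stood high in WT 1 and KO 3, 1 library of each genotype. Slc16a1 (MCT1, a lactate carrier) reached 42.8 CPM in WT 1 and 32.8 in KO 3, against 8.15 to 17.3 CPM in the other 7 libraries. Ero1l, an oxidase of protein folding that responds to low oxygen, reached 144 CPM in WT 1 and 121 in KO 3, against 55.6 to 89.4 CPM in the others. Tfrc (the transferrin receptor) reached 337 CPM in WT 1 and 178 in KO 3, with WT 3 close to the latter at 171 CPM. Ak4, a mitochondrial adenylate kinase, was high in KO 3 (9.69 CPM) but not in WT 1 (4.88 CPM). These genes were picked for standing high in KO 3, so their levels are a description.

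The genes outside the lists whose log2 CPM over the 9 libraries was most like the mean of the 31 were Pik3ip1 (Pearson r = 0.977), Shoc2 (0.950), Gm49125 (0.942), Gm44027 (0.931), Cebpg (0.930), Gm44270 (0.926), Akirin2 (0.924), Mrpl22 (0.922), Fbxw2 (0.922) and Sept7 (0.922). These were the highest of all tested genes, all were highest in KO 3, and the libraries share depth and cell makeup, so the values are a description. Pik3ip1 stood at 34.4, 30.5, 29.4 and 29.3 CPM in the WT tumors and at 23.1, 26.6, 39.6, 25.3 and 26.5 CPM in KO.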
